A study of Mus musculus with 30 samples.

Results

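The comparison between the linseed oil (LO) and the soybean oil (SO) diets after 32 weeks was examined in the ventral prostate (VP) across all genes counted. Its members were the 10 libraries that the labels place in these groups, 5 LO mice and 5 SO mice, of the 30 libraries of the series. All mice were C57BL/6 males that received isocaloric diets with a normal fat content from weaning, and the diets differed in their source of lipid. LO supplied mainly ω-3 α-linolenic acid and SO mainly ω-6 linoleic acid, so the comparison is between unsaturated fats of opposite ω-3 to ω-6 balance. The other groups of the series received lard (PF) for 32 weeks, or 1 of the 3 diets for 12 weeks, with 5 mice each. The labels name no group on an ordinary chow, so each value below is a difference between LO and SO and not a change from an untreated state. Each library carries a mouse number, but litters, cages and pooling are not given in the sources used here, so p-values measure the spread between these libraries.

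The mouse VP is a gland of luminal secretory cells, a thin basal layer, smooth muscle and a sparse stroma with resident immune cells. It depends on androgen and keeps along its ducts the positional Hox gene code of the embryonic urogenital sinus. α-Linolenic and linoleic acid cannot be made by mammals and compete for the same desaturases and elongases, which turn them into longer fatty acids. Cyclooxygenases and lipoxygenases oxidise those products to eicosanoids, and unsaturated fatty acids also act on nuclear receptors of the PPAR family and on the lipogenic factor SREBP1. The gene groups below follow these routes, and then the cell types that the tissue can hold.

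Between 27590631 and 35539928 reads were assigned to genes in the LO libraries and between 29125565 and 32800730 in the SO libraries. The 10 largest genes took 22.7 ± 3.19% of the counts in LO and 23.6 ± 1.52% in SO (mean ± SD, n = 5; exact permutation test, two-sided, p = 0.532). The diets did not separate on the first principal component of the 500 most variable genes, which held 42.9% of the variance (difference of 17.4 between mean scores, exact permutation test, two-sided, p = 0.278). Of these 500 genes 152 were immunoglobulin variable segments, and without them the difference was 6.68 (exact permutation test, p = 0.579). Mice on different diets lay on average 79.9 apart over all genes in log2 CPM (counts relative to the library total after TMM scaling) and mice on the same diet 81.1 apart (exact permutation test, one-sided, p = 0.603). The smallest p that 5 mice against 5 allow in a two-sided test is 0.00794. Some mice stood apart in single gene groups: SO mouse 4 in lymphocyte and cell division genes, LO mouse 3 in Tgm4 and 9530053A07Rik, and LO mouse 1 in muscle, keratin and blood genes. Part of this went with the mouse number. Mouse 1 was the highest of its diet in LO, SO and PF for Hoxb13, at 467, 541 and 701 CPM. The same held for the summed luminal markers, at 3527, 3547 and 4399 CPM, and the cause was not tested. Results that rest on SO mouse 4 are given with and without it. A range in parentheses after the median of a gene list runs from its lowest to its highest value with each mouse left out in turn.

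No gene passed the test between LO and SO after 32 weeks. Of 16218 genes tested by edgeR's quasi-likelihood test with Benjamini-Hochberg adjustment, 0 (0%) reached an adjusted p of 0.05, and the smallest adjusted p was 0.438. At an unadjusted p under 0.05, 565 genes (3.48%) remained, of which 243 (1.5% of the genes tested) had the higher level in LO and 322 (1.99%) in SO. Without LO mouse 3 the 565 genes became 359. DESeq2's Wald test, which the study applied to such counts, called 6 of 25678 genes (0.0234%), 4 higher and 2 lower in LO, and left 714 at an unadjusted p under 0.05. The typical gene moved little: the median absolute log2 fold change was 0.089, the median standard error 0.16, and 49.3% of the genes were higher in LO with a median of -0.0021. The CPM of the 5 LO mice lay wholly above those of the 5 SO mice for 47 genes (0.29%) and wholly below them for 59 (0.364%). Levels below are therefore given mouse by mouse, with the log2 fold change LO minus SO and its standard error, and a gene with an unadjusted p under 0.05 is marked as such. By edgeR the adjusted p was 0.438 for Lyz1 and Gm12888, 0.479 for Hottip, 0.903 for Hoxa13 and 0.9997 for every other gene named below.

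Among genes of at least 1 CPM, Lyz1 had the smallest p of those higher in LO. Lyz1 (ENSMUSG00000069515, chr10:117287797-117292868, minus strand) encodes the lysozyme best known from Paneth cells, and its neighbour Lyz2 (chr10:117277331-117282321, minus strand) encodes the lysozyme of macrophages and neutrophils. Lyz1 stood at 14.9, 9.19, 25.8, 8.09 and 28.6 CPM in LO mice 1 to 5 and at 2.77, 3.17, 7.15, 4.11 and 5.09 CPM in SO mice 1 to 5. The lowest LO mouse lay above the highest SO mouse, and the log2 fold change was 1.96 ± 0.35 (SE, adjusted p = 0.438, edgeR; adjusted p = 0.00021, DESeq2). Lyz2 stood at 218, 139.5, 411, 63.9 and 213 CPM in LO mice 1 to 5 and at 57.02, 116, 209, 206 and 263 CPM in SO mice 1 to 5. The diets overlapped for Lyz2 (log2 fold change 0.30 ± 0.46), and the values of the pair were not tested against each other. Reads that match both genes cannot be assigned with certainty, and the values of Lyz1 carry that limit.

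The upstream sequences of the pair are shown because these neighbours are near copies with unlike values. They lie on the minus strand of chromosome 10, at chr10:117292918-117293118 for Lyz1 and chr10:117282322-117282522 for Lyz2 (RefSeq, GRCm38.p6), each 201 bases written 5′ to 3′. In a global alignment 151 of 203 columns (74.4%) were identical. Capitals mark matches on either strand to a CCAAT box (CCAAT), a GC box (GGGCGG), an E-box (CACGTG), a nuclear receptor half-site (AGGTCA) or a TATA box (TATAAA).
Lyz1: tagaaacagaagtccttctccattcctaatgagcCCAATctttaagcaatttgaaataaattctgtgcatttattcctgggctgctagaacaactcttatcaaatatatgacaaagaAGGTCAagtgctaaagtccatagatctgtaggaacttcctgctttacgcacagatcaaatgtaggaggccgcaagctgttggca
Lyz2: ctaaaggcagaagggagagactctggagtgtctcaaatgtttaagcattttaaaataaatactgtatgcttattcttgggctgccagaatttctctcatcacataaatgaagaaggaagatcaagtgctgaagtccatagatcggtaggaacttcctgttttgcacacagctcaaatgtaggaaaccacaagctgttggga
The Lyz1 window ends at base 117292918 and its gene starts at base 117292868, so the bases between were neither shown nor searched. The Lyz2 window reaches its annotated gene. Counted from the gene start, the Lyz1 window holds a CCAAT box 216 bases before it and a half-site 133 bases before it. The Lyz2 window holds none of the 5 motifs. Of 32851 mouse promoters in the same table, 33.9% hold CCAAT and 14.02% hold AGGTCA in the 250 bases before the start, a slightly longer window, so neither match is rare.

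The next genes by p on the LO side were Hottip, Hoxa13 and Hoxa11os of the Hoxa cluster, described with the Hox genes below. Scnn1g, the gamma subunit of the epithelial sodium channel, followed. Scnn1g stood at 4.23, 3.97, 3.95, 3.71 and 3.28 CPM in LO mice 1 to 5 and at 2.84, 2.45, 2.42, 2.41 and 2.53 CPM in SO mice 1 to 5. The diets did not overlap (log2 fold change 0.60 ± 0.14, unadjusted p under 0.05). Adarb2 stood at 1.21, 1.25, 1.73, 1.396 and 1.47 CPM in LO mice 1 to 5 and at 0.855, 0.714, 1.08, 0.587 and 0.944 CPM in SO mice 1 to 5. Adarb2, an RNA-binding relative of the adenosine deaminases that edit RNA, did not overlap between diets either (log2 fold change 0.75 ± 0.18, unadjusted p under 0.05). Cyp4b1 stood at 7.51, 6.16, 8.61, 7.17 and 7.32 CPM in LO mice 1 to 5 and at 5.54, 4.63, 6.098, 5.32 and 5.54 CPM in SO mice 1 to 5. For this cytochrome P450 all LO mice were higher than all SO mice (log2 fold change 0.44 ± 0.11, unadjusted p under 0.05). Mpp1 stood at 69.3, 63.9, 56.5, 66.6 and 85.9 CPM in LO mice 1 to 5 and at 54.8, 53.2, 54.6, 45.7 and 56.3 CPM in SO mice 1 to 5. Mpp1, a scaffold protein of the cell membrane, did not overlap, with its highest value in LO mouse 5 and its lowest in SO mouse 4 (log2 fold change 0.37 ± 0.095, unadjusted p under 0.05). Ighv1-74 stood at 4.54, 17.5, 8.93, 0.571 and 1.64 CPM in LO mice 1 to 5 and at 0.137, 0.404, 0.875, 1.33 and 0.305 CPM in SO mice 1 to 5. This immunoglobulin segment spanned the widest range of the group, and its diets overlapped (log2 fold change 3.43 ± 0.86, unadjusted p under 0.05).

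Acot1, a cytosolic acyl-CoA thioesterase known as a PPARα target, was the last of the 10 genes named on this side. Acot1 stood at 31.8, 25.3, 23.6, 33.2 and 28.5 CPM in LO mice 1 to 5 and at 19.02, 17.1, 28.1, 16.3 and 18 CPM in SO mice 1 to 5. SO mouse 3 lay inside the LO range and the other 4 SO mice below it (log2 fold change 0.53 ± 0.14, unadjusted p under 0.05). Its mitochondrial neighbour Acot2, a near copy on chromosome 12, overlapped throughout (log2 fold change 0.043 ± 0.15), and reads shared by the pair leave both values uncertain. The sequence before the Acot1 start (chr12:84009252-84009489, plus strand, 238 bases, GRCm38.p6) is shown because the gene is a textbook target of a fatty acid receptor.
Acot1: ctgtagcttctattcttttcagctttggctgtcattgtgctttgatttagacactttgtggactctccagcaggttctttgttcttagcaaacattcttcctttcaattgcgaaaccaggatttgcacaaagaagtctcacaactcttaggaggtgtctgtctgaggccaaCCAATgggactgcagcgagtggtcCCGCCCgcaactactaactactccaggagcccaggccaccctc
It holds 1 CCAAT box and 1 GC box. The half-site AGGTCA, a part of the element that PPARs bind, is not spelled out in this window.

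**Figure D1:**
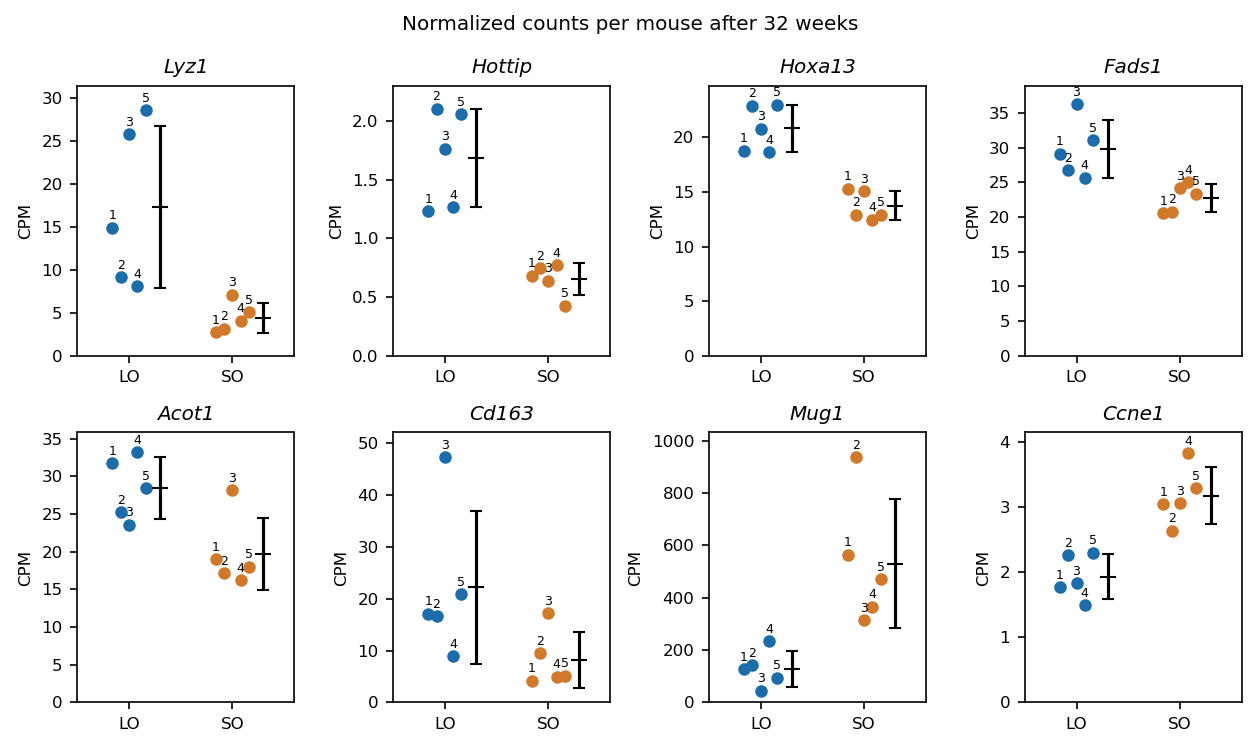
Normalized counts (CPM) of 8 genes in each LO and SO mouse after 32 weeks, with the mouse number above each point and the mean ± SD beside the points (n = 5 per diet). For Lyz1, Hottip, Hoxa13 and Fads1 every LO mouse lies above every SO mouse, for Mug1 and Ccne1 every LO mouse lies below, and for Acot1 and Cd163 the diets overlap.

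On the side of lower levels in LO, the gene of at least 1 CPM with the smallest p was Gm12873, an unprocessed pseudogene. Gm12873 stood at 7.51, 12.4, 6.68, 7.14 and 11.1 CPM in LO mice 1 to 5 and at 23.3, 36.8, 29.8, 35.6 and 32.7 CPM in SO mice 1 to 5. The highest LO mouse was below the lowest SO mouse (log2 fold change -1.82 ± 0.41, unadjusted p under 0.05, adjusted p = 0.9997, edgeR; adjusted p = 0.0108, DESeq2). Gm12888, a further gene model, stood at 0.449, 0.186, 0.257, 0.381 and 0.279 CPM in LO mice 1 to 5 and at 0.855, 1.46, 0.904, 1.79 and 1.22 CPM in SO mice 1 to 5 (log2 fold change -1.99 ± 0.34, unadjusted p under 0.05). Gm12888 is annotated as protein-coding, and the reads of both gene models may be shared. Mug1 stood at 127, 141, 44.9, 234 and 94.6 CPM in LO mice 1 to 5 and at 564, 937, 315, 366 and 469.5 CPM in SO mice 1 to 5. Mug1, a murinoglobulin of the α-macroglobulin protease inhibitors, did not overlap between diets (log2 fold change -2.05 ± 0.49, unadjusted p under 0.05), and reads that also match its paralog Mug2 can be missing from its count. Rgs7bp stood at 12.8, 14.5, 8.57, 11.7 and 11.3 CPM in LO mice 1 to 5 and at 20.5, 29.9, 18.8, 17.2 and 19.5 CPM in SO mice 1 to 5. Rgs7bp anchors regulators of G protein signalling to the membrane (log2 fold change -0.84 ± 0.19, unadjusted p under 0.05).

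Adgrg6 stood at 29.8, 35.4, 31.6, 35.9 and 36.5 CPM in LO mice 1 to 5 and at 42.2, 51.5, 45.2, 41.6 and 48.2 CPM in SO mice 1 to 5. Adgrg6 is an adhesion G protein-coupled receptor, and its diets did not overlap (log2 fold change -0.44 ± 0.11, unadjusted p under 0.05). Ccne1 stood at 1.77, 2.27, 1.83, 1.49 and 2.302 CPM in LO mice 1 to 5 and at 3.04, 2.64, 3.06, 3.83 and 3.29 CPM in SO mice 1 to 5. Ccne1 encodes the cyclin that drives entry into DNA replication, and every LO mouse lay below every SO mouse (log2 fold change -0.72 ± 0.18, unadjusted p under 0.05). Sppl2a stood at 201, 232, 161, 217 and 238 CPM in LO mice 1 to 5 and at 292, 336, 259, 251 and 254 CPM in SO mice 1 to 5. This intramembrane protease of endosomes showed the same order (log2 fold change -0.41 ± 0.10, unadjusted p under 0.05). Lpgat1, an acyltransferase of lysophospholipids, had the smallest difference of the 10 but a narrow spread, at 50.7, 52.3, 46.2, 49.7 and 52.8 CPM in LO and 56.2, 62.1, 61.7, 60.2 and 66.1 CPM in SO (log2 fold change -0.28 ± 0.073, unadjusted p under 0.05). BC051142 stayed under 1 CPM in every LO mouse and above it in every SO mouse (log2 fold change -0.96 ± 0.26, unadjusted p under 0.05).

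Prkaa2, a catalytic subunit of the energy sensor AMPK, and Acpp, prostatic acid phosphatase, overlapped through 1 mouse each. Prkaa2 stood at 41.01, 53.9, 34.2, 47.6 and 39.7 CPM in LO mice 1 to 5 and at 67.05, 75.96, 58.8, 53.02 and 60.8 CPM in SO mice 1 to 5. LO mouse 2 passed SO mouse 4 (log2 fold change -0.54 ± 0.13, unadjusted p under 0.05). Acpp stood at 14.2, 17.1, 12.3, 19.5 and 16.1 CPM in LO mice 1 to 5 and at 27.5, 33.98, 27.4, 15.4 and 24.8 CPM in SO mice 1 to 5. SO mouse 4 lay inside the LO range and the other 4 SO mice above it (log2 fold change -0.70 ± 0.17, unadjusted p under 0.05).

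Hox genes, which fix the position of cells along the body and the urogenital tract, had mostly higher levels in LO. The family was examined after Hoxa13, Hottip and Hoxa11os were seen among the genes with the smallest p, and the counts below include these genes, so they are a description with no test. All 10 tested genes of the Hoxa cluster, antisense genes included here and in the other clusters, had a positive log2 fold change, with a median of 0.32 and a range of 0.16 to 0.60, and 6 of them had an unadjusted p under 0.05. In the Hoxd cluster all 8 tested genes were higher, 3 of them at that threshold, with a median of 0.34. The Hoxb cluster had 9 of 11 higher, 1 at that threshold, with a median of 0.33, and the Hoxc cluster 2 of 3. Over all genes 49.3% were higher in LO, and 1.5% were higher at an unadjusted p under 0.05. None passed the adjusted threshold by edgeR, and genes of 1 cluster are not independent measurements.

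Hoxa13 stood at 18.8, 22.9, 20.8, 18.6 and 22.98 CPM in LO mice 1 to 5 and at 15.3, 12.9, 15.1, 12.5 and 12.9 CPM in SO mice 1 to 5. Hoxa13 (ENSMUSG00000038203, chr6:52257694-52260880, minus strand) is the end member of its cluster and patterns the lower urogenital tract, and its diets did not overlap (log2 fold change 0.60 ± 0.12, unadjusted p under 0.05, adjusted p = 0.903, edgeR; adjusted p = 0.0262, DESeq2). Hottip stood at 1.23, 2.105, 1.77, 1.27 and 2.06 CPM in LO mice 1 to 5 and at 0.684, 0.745, 0.642, 0.773 and 0.426 CPM in SO mice 1 to 5. Hottip (ENSMUSG00000055408, chr6:52262775-52267603, plus strand) is a long noncoding RNA known to maintain the distal Hoxa genes, and it starts 1894 bases from Hoxa13 on the opposite strand (log2 fold change 1.36 ± 0.26, unadjusted p under 0.05, adjusted p = 0.479, edgeR; adjusted p = 0.0108, DESeq2). Hoxa11os stood at 79.8, 66.9, 99.4, 79.2 and 81.9 CPM in LO mice 1 to 5 and at 56.3, 46.5, 62.1, 51.5 and 61.8 CPM in SO mice 1 to 5. This antisense RNA shares 1418 bases with Hoxa11 (log2 fold change 0.55 ± 0.13, unadjusted p under 0.05). The kit marks strand, but the strand setting of the counting is not given in the sources used here, so reads of the pair cannot be told apart with certainty. Hoxa9, Hoxa10 and Hoxa11 also did not overlap, with log2 fold changes of 0.27, 0.35 and 0.27, and neither did Hoxb4 at 0.36. Hoxd13 overlapped only through LO mouse 4 and SO mouse 3 (log2 fold change 0.33 ± 0.12, unadjusted p under 0.05). Hoxb13, the prostate lineage factor, gave no such order, at 467, 272, 249.8, 295 and 210 CPM in LO and 541, 237, 278, 264 and 260.5 CPM in SO (log2 fold change -0.08 ± 0.31).

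The sequences before Hoxa13 and Hottip are shown because these neighbours start close to each other on opposite strands and had the smallest p of the family. Both are 250 bases written 5′ to 3′ from RefSeq on GRCm38.p6, at chr6:52260881-52261130 on the minus strand and chr6:52262525-52262774 on the plus strand of chromosome 6, with the same 5 motifs in capitals.
Hoxa13: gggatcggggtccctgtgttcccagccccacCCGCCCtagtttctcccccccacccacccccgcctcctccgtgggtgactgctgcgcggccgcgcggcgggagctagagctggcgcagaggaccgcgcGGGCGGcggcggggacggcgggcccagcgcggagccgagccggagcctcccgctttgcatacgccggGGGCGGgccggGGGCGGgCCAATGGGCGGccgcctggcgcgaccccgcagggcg
Hottip: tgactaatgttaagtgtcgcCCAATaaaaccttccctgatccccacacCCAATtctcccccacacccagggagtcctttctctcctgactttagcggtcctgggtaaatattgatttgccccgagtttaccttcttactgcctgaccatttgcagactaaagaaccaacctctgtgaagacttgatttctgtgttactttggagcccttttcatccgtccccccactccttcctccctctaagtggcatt
Hoxa13 has 80% G and C in this window, with 5 GC boxes and 1 CCAAT box, and Hottip has 48.4% with 2 CCAAT boxes and no GC box. Of all promoters 32.7% hold at least 1 GC box and 33.9% at least 1 CCAAT box in the same window. All 5 genes whose sequences are shown matched 1 entry of the table.

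**Figure D2:**
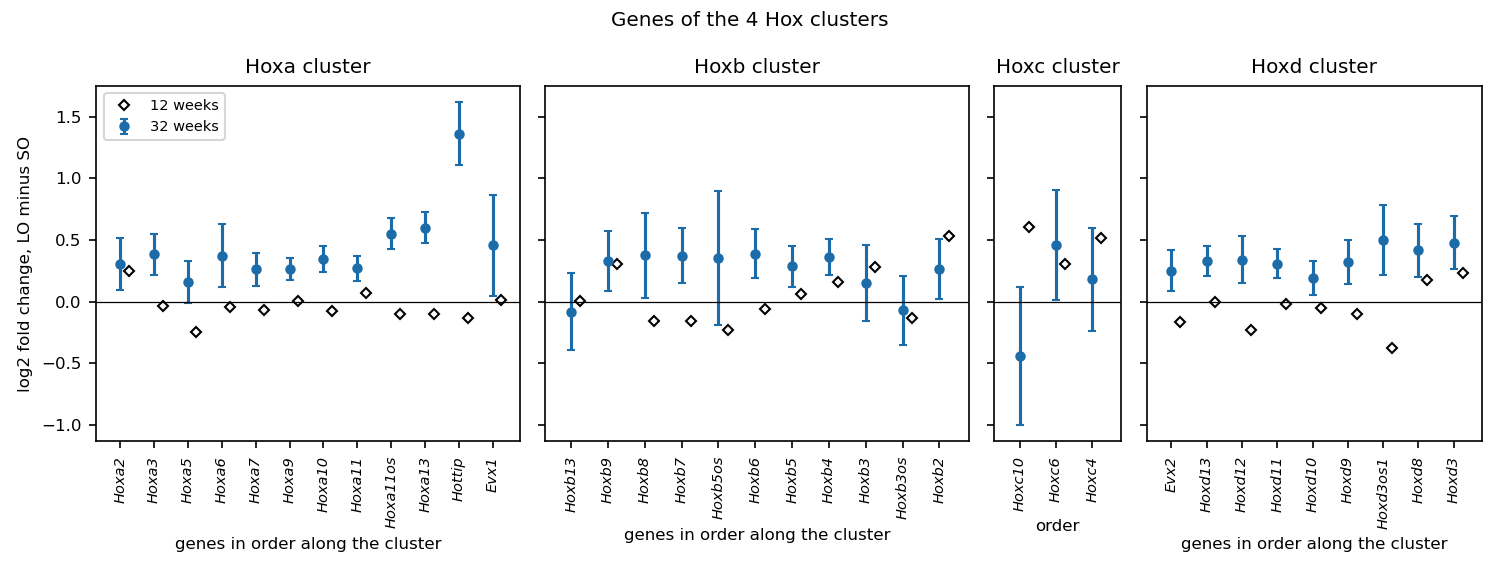
Log2 fold change LO minus SO of the tested genes of the 4 Hox clusters in their order along the chromosome, after 32 weeks (filled circles, bars SE) and after 12 weeks (open diamonds, without bars). After 32 weeks all 10 Hoxa and all 8 Hoxd genes lie above 0, as does Hottip, and after 12 weeks Hottip, Hoxa13 and Hoxa11os lie at -0.13, -0.1 and -0.097.

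Fatty acid handling differed little. Of the 13 tested desaturases and elongases of polyunsaturated fatty acids, 9 were higher in LO with a median log2 fold change of 0.047, and their summed level lay between 668 and 763 CPM in the LO mice (median 749) and between 693 and 754 CPM in the SO mice (median 742). Fads1, the delta-5 desaturase, was the member without overlap between diets. Fads1 stood at 29.1, 26.8, 36.2, 25.7 and 31.04 CPM in LO mice 1 to 5 and at 20.5, 20.8, 24.2, 24.98 and 23.4 CPM in SO mice 1 to 5. LO mouse 4 lay just above SO mouse 4 (log2 fold change 0.39 ± 0.13, unadjusted p under 0.05). Fads2 stood at 18.3, 11.7, 15.3, 9.71 and 10.01 CPM in LO mice 1 to 5 and at 12.9, 9.503, 9.71, 11.5 and 9.199 CPM in SO mice 1 to 5. The delta-6 desaturase Fads2 overlapped (log2 fold change 0.30 ± 0.17), as did the elongase Elovl5 (log2 fold change 0.14 ± 0.13).

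Fatty acid synthesis genes were higher in LO in 17 of 19 cases, with a median of 0.15 (0.088 without LO mouse 3 to 0.24 without SO mouse 3) and 0 at an unadjusted p under 0.05. Scd1, which makes monounsaturated fatty acids, overlapped (log2 fold change 0.19 ± 0.32), as did Scd2 (log2 fold change 0.13 ± 0.10), the synthase Fasn (log2 fold change 0.15 ± 0.29), the carboxylase Acaca (log2 fold change 0.23 ± 0.27) and the regulator Srebf1 (log2 fold change 0.28 ± 0.33). Thrsp had the largest difference of the list, at 14.1, 4.02, 19.7, 13.3 and 8.44 CPM in LO and 2.22, 1.68, 22.6, 0.958 and 7.46 CPM in SO, with SO mouse 3 the highest of all (log2 fold change 0.76 ± 0.80). Cholesterol synthesis genes were higher in 21 of 24 cases with a median of 0.087. Fdps, the farnesyl diphosphate synthase, gave a log2 fold change of 0.23 ± 0.16. PPAR targets and fatty acid oxidation genes were higher in 21 of 29 cases with a median of 0.038, and Acot1 was the member at an unadjusted p under 0.05. Without SO mouse 4 that count was 12 of 29 with a median of -0.0026, and without LO mouse 4 the median was -0.012. Pdk4, a standard PPAR target, overlapped (log2 fold change 0.041 ± 0.26).

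Of 22 eicosanoid enzymes 17 were higher in LO with a median of 0.16 (0.069 without LO mouse 1 to 0.24 without SO mouse 1). Alox5 stood at 2.41, 1.47, 2.92, 0.952 and 1.99 CPM in LO mice 1 to 5 and at 0.684, 1.02, 1.81, 0.866 and 1.07 CPM in SO mice 1 to 5. Alox5, the lipoxygenase that opens the leukotriene route, was the member at an unadjusted p under 0.05, and its diets overlapped (log2 fold change 0.83 ± 0.33). Alox15, a lipoxygenase of macrophages and eosinophils, stood at 5.61, 5.28, 3.85, 2.38 and 9.24 CPM in LO and 2.02, 4.099, 3.005, 4.27 and 2.44 CPM in SO (log2 fold change 0.73 ± 0.40). The cyclooxygenases overlapped, with Ptgs1 at 0.29 ± 0.17 and the inducible Ptgs2 at 0.21 ± 0.51. Receptors for eicosanoids and fatty acids were higher in 10 of 14 cases with a median of 0.20 (0.073 without SO mouse 5 to 0.26 without SO mouse 3), and Ffar4, a receptor for ω-3 fatty acids, stayed under 1 CPM in all 10 mice (log2 fold change -0.46 ± 0.54).

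Adipocyte transcripts were present in every library at unlike levels. The 14 tested markers summed between 181 and 844 CPM in the LO mice (median 418) and between 118 and 695 CPM in the SO mice (median 175), and 11 of 14 were higher in LO with a median of 0.40 (0.043 without LO mouse 4 to 0.99 without SO mouse 5), or 0.16 without SO mouse 4. Adipoq stood at 13.7, 6.18, 27.6, 42.8 and 9.07 CPM in LO and 5.68, 3.48, 22.8, 1.82 and 39.02 CPM in SO (log2 fold change 0.45 ± 0.83), so the spread within a diet exceeded the difference between diets. Lep, the leptin gene, reached 24.4 CPM in SO mouse 5 and stayed under 5 CPM in the other 9 mice (log2 fold change -1.34 ± 0.99). Pparg gave 0.45 ± 0.35. Ucp1, the thermogenic uncoupler, had 4 counts in all LO libraries and 9 in all SO libraries and was not tested. Fatty acid synthesis genes are also adipocyte genes, and the part of adipocytes in their levels was not tested.

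Immunoglobulin segments had the largest median fold changes of the gene lists. Of 73 tested heavy chain variable segments 63 were higher in LO, 16 of them at an unadjusted p under 0.05 and 1 in the other direction, with a median log2 fold change of 1.12. Of 76 light chain segments 63 were higher, 19 at that threshold, with a median of 1.08. Over all genes 1.5% were higher and 1.99% lower at that threshold. These segment lists were made after the values were seen, and segments can match the same reads and come from the same plasma cells. The heavy segments summed between 81.7 and 1178 CPM in the LO mice (median 932) and between 40.7 and 668 CPM in the SO mice (median 351), so the mice of both diets overlapped widely. Igkc stood at 3431, 1146, 3564, 315 and 2672 CPM in LO mice 1 to 5 and at 243, 1127, 1617, 1535 and 164 CPM in SO mice 1 to 5. LO mouse 4 and SO mice 1 and 5 were the low mice for this kappa constant gene (log2 fold change 1.25 ± 0.66), and the same mice were low for the heavy constant gene Ighm at 559.8, 530.3 and 253 CPM (log2 fold change 1.33 ± 0.70). In whole tissue, fewer cells of a type and less RNA per cell cannot be told apart, here and for each cell type below.

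T cell markers were lower in LO in all 17 of 17 tested cases, 5 of them at an unadjusted p under 0.05 (1.99% of all genes were lower at that threshold), with a median log2 fold change of -0.94. Without SO mouse 4 the same 17 genes had a median of -0.11, with 5 higher, 12 lower and 0 at that threshold. The markers summed between 15.99 and 31.02 CPM in the LO mice (median 22.1) and between 18.6 and 88.6 CPM in the SO mice (median 26.6), and without SO mouse 4 the highest SO mouse stood at 29.5 CPM. Cd3e stood at 0.617, 0.933, 1.16, 0.856 and 1.5 CPM in LO mice 1 to 5 and at 1.03, 0.963, 0.904, 4.54 and 1.46 CPM in SO mice 1 to 5. Cd3e, a chain of the T cell receptor complex, thus reached 4.54 CPM in SO mouse 4 and at most 1.5 CPM in the other 9 mice (log2 fold change -0.82 ± 0.45; without SO mouse 4, log2 fold change -0.11). The constant gene Trac had the same form, at 3.65 CPM in SO mouse 4 (log2 fold change -1.36 ± 0.59, unadjusted p under 0.05; without it -0.34). The lower T cell values of LO therefore came mainly from 1 SO mouse.

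SO mouse 4 was also the highest mouse for B cell genes. Cd22, a B cell lectin, stood at 1.77, 1.47, 4.59, 0.793 and 2.06 CPM in LO and 1.197, 4.94, 3.59, 21.7 and 2.04 CPM in SO (log2 fold change -1.65 ± 0.72, unadjusted p under 0.05; without SO mouse 4 -0.47). The complement receptor Cr2 reached 5.101 CPM there and the chemokine receptor Ccr6 2.38 CPM, against at most 1.46 and 0.652 CPM in the other 9 mice. The 17 B and plasma cell markers had a median of -0.06 with all mice (-0.69 without LO mouse 3 to 0.74 without SO mouse 2) and 0.46 without it. Dendritic and NK cell markers had a median of -0.24 with it and 0.073 without it, and antigen presentation genes were higher in LO in 2 of 21 cases with it and 10 of 21 without it. Cd74 and H2-Aa, the invariant chain and an MHC class II chain, gave 0.037 ± 0.28 and -0.084 ± 0.30 with all mice.

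Interferon-stimulated genes were lower in LO in 29 of 31 cases with a median of -0.39 (-0.57 without LO mouse 5 to -0.19 without SO mouse 4), and 0 had an unadjusted p under 0.05. They summed between 659 and 1672 CPM in the LO mice (median 958) and between 937 and 2054 CPM in the SO mice (median 1434). Rsad2, an antiviral enzyme and the member with the largest difference, stood at 12.9, 26.4, 16.2, 8.85 and 41.8 CPM in LO and 38.1, 32.9, 22.9, 47.3 and 30.2 CPM in SO (log2 fold change -0.69 ± 0.35). Without SO mouse 4 the median was -0.19 with 6 of 31 higher. Chemokines had a median of -0.089, chemokine receptors -0.18, cytokine and inflammasome genes -0.054 and Toll-like receptors -0.06, and without SO mouse 4 these medians were 0.13, 0.14, 0.059 and 0.12. Without LO mouse 4 the last 3 also turned positive, at 0.025, 0.052 and 0.069. Il1b and Tnf, the main inflammatory cytokines of macrophages, overlapped (log2 fold change 0.19 ± 0.58 for Il1b; log2 fold change -0.65 ± 0.57 for Tnf). Il6 had 10 counts over the LO and 5 over the SO libraries and was not tested. Tlr4 gave -0.06 ± 0.12, and the monocyte chemokine Ccl2 1.08 ± 0.60.

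**Figure D3:**
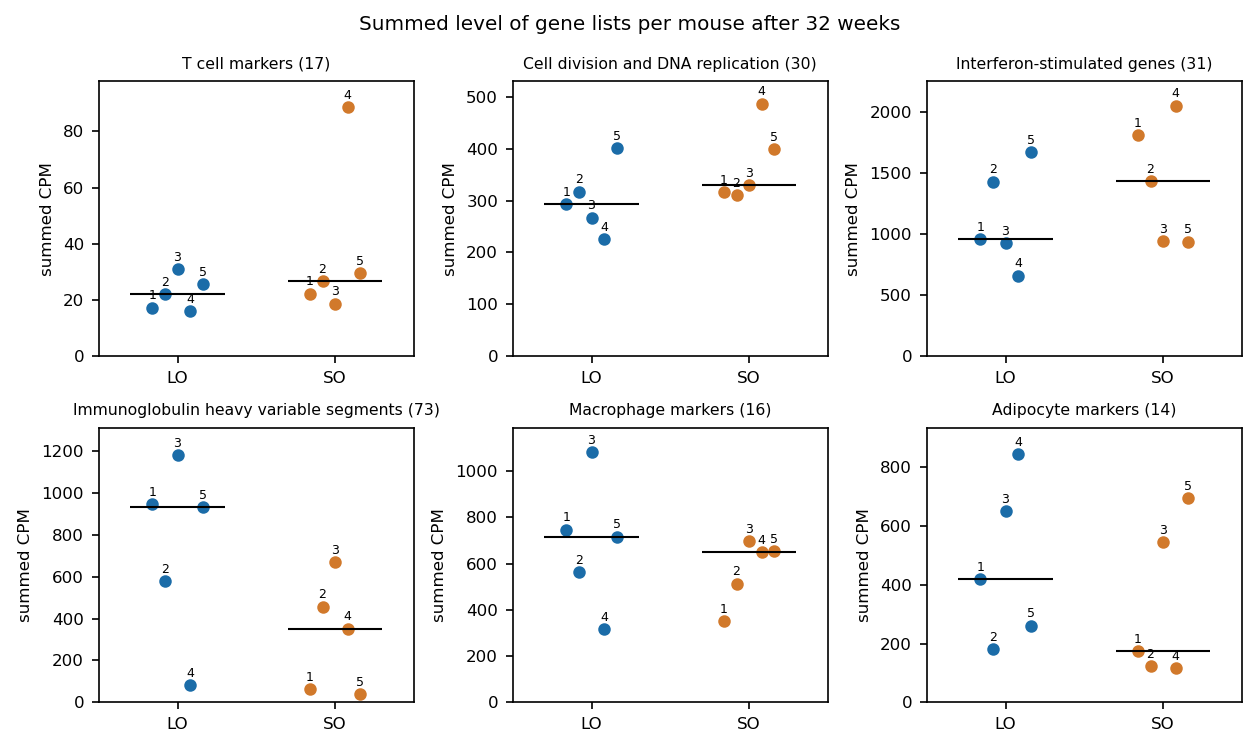
Summed CPM of 6 gene lists in each LO and SO mouse after 32 weeks, with the mouse number above each point and a line at the median of each diet. SO mouse 4 stands alone in the T cell panel at 88.6 CPM, while LO and SO mice overlap in all 6 panels.

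Macrophage markers were higher in LO in 14 of 16 cases with a median of 0.24 (0.03 without LO mouse 3 to 0.44 without LO mouse 4). Cd163 stood at 17.1, 16.6, 47.4, 8.98 and 20.9 CPM in LO mice 1 to 5 and at 4.17, 9.503, 17.2, 4.95 and 5.18 CPM in SO mice 1 to 5. Cd163, the haemoglobin scavenger receptor of tissue macrophages, was the member at an unadjusted p under 0.05, and its diets overlapped through SO mice 2 and 3 (log2 fold change 1.43 ± 0.50). Mrc1, the mannose receptor, gave 0.58 ± 0.32, and the pan-macrophage gene Adgre1 0.25 ± 0.34. Prg2 stood at 3.59, 1.63, 4.14, 0.9198 and 2.27 CPM in LO mice 1 to 5 and at 0.616, 1.12, 1.08, 1.21 and 0.548 CPM in SO mice 1 to 5. Prg2, the eosinophil major basic protein, overlapped through LO mouse 4 (log2 fold change 1.45 ± 0.38, unadjusted p under 0.05). Ear2, an eosinophil-associated ribonuclease, stood at 3, 2.798, 2.505, 2.03 and 7.18 CPM in LO and 1.13, 1.52, 2.28, 1.48 and 1.65 CPM in SO (log2 fold change 1.11 ± 0.32, unadjusted p under 0.05), and it can share reads with other members of its family. The 7 tested eosinophil genes, a list made after the values were seen, had 6 higher and a median of 0.73. This list of 12 includes Cd24a, a gene that luminal cells also use. Among its untested members Epx, the eosinophil peroxidase, had 2 counts in LO and 1 in SO, and Prg3 had 3 and 6. Ear1, Ear6 and Ear10 had at most 1 count in any LO or SO library.

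Mast cell markers were higher in 6 of 7 cases with a median of 0.82 (0.48 without LO mouse 3 to 0.99 without LO mouse 2), at a summed level between 7.61 and 20.6 CPM in the LO mice (median 11.04) and between 6.03 and 10.1 CPM in the SO mice (median 9.24). Cpa3, the mast cell carboxypeptidase, gave 0.89 ± 0.41 (unadjusted p under 0.05). Of 11 neutrophil markers 4 were tested, of which 2 were higher and 2 lower with a median of -0.52 (-0.76 without SO mouse 1 to -0.21 without SO mouse 5). The largest difference among them was that of S100a9, under 1 CPM in all mice but LO mouse 5 at 2.06 CPM (log2 fold change 2.42 ± 1.04, unadjusted p under 0.05). The granule genes Elane and Mpo were near 0. Complement genes were higher in 19 of 23 cases with a median of 0.31 (0.15 without LO mouse 3 to 0.50 without LO mouse 4). At an unadjusted p under 0.05, 0 of them were higher and 1 was lower, and the lowest log2 fold change was -2.71. Mmp9, a gelatinase of myeloid cells, stood at 9.53, 5.89, 13.4, 3.27 and 4.57 CPM in LO and 3.97, 3.91, 4.81, 3.803 and 3.69 CPM in SO (log2 fold change 0.86 ± 0.30, unadjusted p under 0.05). Mmp12, the macrophage elastase, was set by SO mouse 5 at 86.6 CPM and LO mouse 1 at 16.6 CPM (log2 fold change -2.25 ± 1.24).

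Genes of cell division and DNA replication were lower in LO in all 30 of 30 tested cases, 6 of them at an unadjusted p under 0.05. Over all genes 1.99% were lower at that threshold. The median of the list was -0.41 (-0.64 without LO mouse 5 to -0.20 without SO mouse 4). Without SO mouse 4, 29 of 30 were lower, 2 of them at that threshold, with a median of -0.20. The list summed between 225 and 401 CPM in the LO mice (median 293) and between 310.4 and 487 CPM in the SO mice (median 329). Mki67 stood at 21.1, 23.1, 17.1, 10.4 and 36.6 CPM in LO mice 1 to 5 and at 22.6, 23.2, 26.8, 57.3 and 31.7 CPM in SO mice 1 to 5. The proliferation antigen Mki67 was lowest in LO mouse 4 and highest in SO mouse 4, and the diets overlapped (log2 fold change -0.58 ± 0.30; without SO mouse 4 -0.27). Rrm2, the small subunit of ribonucleotide reductase, gave -0.46 ± 0.15 (unadjusted p under 0.05) and -0.35 without SO mouse 4. Top2a, which untangles replicated DNA, gave -0.47 ± 0.19 (unadjusted p under 0.05) and -0.34. Ccne1, described above, gave -0.64 without SO mouse 4. T cell and cell division genes were both highest in SO mouse 4, and the part of dividing lymphocytes in these values was not tested.

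Small shifts, mostly of 1 sign within a family but not between families, were seen in the large housekeeping families. Cytosolic ribosomal protein genes were higher in LO in 82 of 86 cases with a median of 0.15 and 2 at an unadjusted p under 0.05. Over all genes 49.3% were higher in LO, and 1.5% were higher at that threshold. Nuclear genes of oxidative phosphorylation were higher in 71 of 79 cases with a median of 0.051, and mitochondrial ribosomal protein genes in 64 of 76 cases with a median of 0.046. The 12 tested mitochondrially encoded genes of oxidative phosphorylation were lower in 12 of 12 cases, with a median of -0.17, or -0.049 without SO mouse 4. Their sums overlapped between diets: the ribosomal genes lay between 34560 and 41550 CPM in the LO mice (median 37930) and between 31420 and 38260 CPM in the SO mice (median 35090). At 12 weeks the same lists had medians of -0.075, -0.11, -0.056 and -0.15, so the 3 nuclear families had the opposite sign there, a difference that was not tested over the lists. Heat-shock protein genes were higher in 22 of 25 cases with a median of 0.12, and Hspa8, the constitutive chaperone, gave 0.28 ± 0.10 (unadjusted p under 0.05).

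Endoplasmic reticulum genes, which a secretory gland uses heavily, differed within a narrow band. Chaperones and ATF6 targets had 19 of 24 higher with a median of 0.031, genes of the PERK and ATF4 response 17 of 23 with 0.091, and genes of the IRE1 branch and of degradation 11 of 22 with 0.0034. Xbp1 stood at 371, 372, 376, 381 and 426 CPM in LO mice 1 to 5 and at 342, 351, 356, 364 and 344 CPM in SO mice 1 to 5. The transcription factor Xbp1 did not overlap but differed by only 0.13 ± 0.062. Ero1lb, an oxidase that drives disulphide formation, did not overlap in the other direction, at 64.1, 58.6, 56.3, 69.7 and 64.4 CPM in LO and 70.3, 80.3, 73.7, 75.3 and 71.6 CPM in SO (log2 fold change -0.25 ± 0.08, unadjusted p under 0.05). The chaperone Hspa5 gave 0.14 ± 0.11 and the stress factor Ddit3 0.11 ± 0.20. Nupr1, a stress-induced nuclear protein, was the member with the largest difference, at 409.7, 349.5, 239.5, 492 and 451 CPM in LO and 541, 644, 669.5, 344 and 671 CPM in SO, with SO mouse 4 in the LO range (log2 fold change -0.56 ± 0.28).

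Other regulatory programmes gave values of similar size. Immediate early genes were higher in 18 of 25 cases with a median of 0.25 (0.034 without LO mouse 1 to 0.39 without LO mouse 4), or 0.10 without SO mouse 4, and Fos ranged from 4.98 to 33.8 CPM within LO (log2 fold change 1.21 ± 0.63). Clock genes were higher in 6 of 22 cases with a median of -0.10, and Nr1d2, a repressor of the clock, overlapped through LO mouse 2 (log2 fold change -0.24 ± 0.095, unadjusted p under 0.05). Polyamine genes had a median of -0.036, antioxidant genes of the NRF2 route 0.028, the insulin-like growth factor axis 0.069, and metallothioneins and zinc transporters -0.0098. Slc39a8, a zinc importer, stood at 110.1, 112, 94.8, 61.5 and 121 CPM in LO and 54.3, 71.96, 74.5, 70.5 and 81.4 CPM in SO (log2 fold change 0.50 ± 0.22, unadjusted p under 0.05). LO mouse 4 alone kept its diets from separating.

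The libraries carried the secretory genes of the VP. Sbp, a spermine-binding protein of the VP secretion, ranged from 80590 to 152800 CPM in LO and from 106000 to 123400 CPM in SO (log2 fold change -0.024 ± 0.25). Spink1, a secreted protease inhibitor, gave -0.27 ± 0.24, probasin (Pbsn) 0.12 ± 0.35 and the secretory protein gene Msmb 0.0062 ± 0.25. Of 19 androgen response and lineage genes 11 were higher with a median of 0.064, and of 17 secretory genes 9 with a median of 0.0062. The 9 seminal vesicle secretion genes had at most 5 counts in any library and were not tested.

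A pair of genes stood out in single mice. Tgm4, a transglutaminase of prostatic secretion, stood at 3.14, 8.05, 302, 4.69 and 16.6 CPM in LO and 5.34, 3.76, 3.79, 4.76 and 2.98 CPM in SO (log2 fold change 4.02 ± 1.34, unadjusted p under 0.05). 9530053A07Rik had 17996 counts in LO mouse 3 and at most 48 in the other 9 mice (log2 fold change 9.40 ± 3.02, unadjusted p under 0.05), so its call by DESeq2 came from 1 library. Without LO mouse 3 the log2 fold change was 0.97 for Tgm4 and 1.91 for 9530053A07Rik. In PF mice 1 to 5 Tgm4 stood at 5.92, 189, 71.5, 10.1 and 8.44 CPM and 9530053A07Rik at 0.411, 315, 130.4, 1.22 and 0.4298 CPM, with both genes high in PF mice 2 and 3. After 12 weeks Tgm4 stood at 38.97, 5.46, 5.97, 1293 and 4.68 CPM in LO and 7.68, 4.83, 87.1, 7.41 and 4.1 CPM in SO, and 9530053A07Rik at 104, 3.35, 0.252, 2768 and 0.213 CPM and 10.7, 0.246, 205, 2.297 and 0.494 CPM. The highest mice were the same for both genes in each of these groups, except in SO after 32 weeks.

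Luminal markers were higher in 5 of 12 cases with a median of -0.038, and Krt8 gave 0.013 ± 0.26 with LO mouse 1 and SO mouse 1 highest. The adhesion gene Cdh1 had a log2 fold change of -0.21 ± 0.094 (unadjusted p under 0.05). Basal markers were higher in 8 of 11 cases with a median of 0.13 (-0.088 without LO mouse 1 to 0.28 without LO mouse 4), so their direction turned without LO mouse 1. Krt15 stood at 111, 85.2, 97.2, 66.2 and 95.01 CPM in LO and 66.7, 50.9, 60.6, 83.01 and 74.4 CPM in SO (log2 fold change 0.44 ± 0.15, unadjusted p under 0.05), the basal keratin Krt5 gave 0.38 ± 0.21 and the basal factor Trp63 0.21 ± 0.13. Genes of proximal luminal cells and of regression were higher in 6 of 15 cases, and Clu, which is induced when the gland regresses, gave -0.37 ± 0.33.

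Fibroblast and matrix genes were higher in LO in 20 of 24 cases with a median of 0.16 (-0.012 without LO mouse 1 to 0.31 without LO mouse 4) and 0 at an unadjusted p under 0.05, at a summed level between 1529 and 2989 CPM in the LO mice (median 2186) and between 1791 and 2747 CPM in the SO mice (median 1903). The proteoglycan Dcn gave 0.33 ± 0.19. Endothelial markers were higher in 9 of 10 cases with a median of 0.19 (0.05 without LO mouse 1 to 0.26 without LO mouse 2), Schwann cell and nerve markers in 9 of 10 with 0.093, and smooth muscle markers in 6 of 14 with -0.012. Acta2, the smooth muscle actin, gave 0.028 ± 0.13. Skeletal muscle markers summed between 111 and 943 CPM in the LO mice (median 157) and between 95.5 and 525 CPM in the SO mice (median 260.3), with LO mouse 1 at the top. Red blood cell genes were higher in 5 of 5 cases with a median of 1.04 (0.45 without LO mouse 1 to 1.45 without SO mouse 1) and summed between 50.8 and 154 CPM in the LO mice (median 59.8) and between 28.1 and 82.9 CPM in the SO mice (median 35.1). The part of blood, fat and muscle in the levels of other genes was not tested.

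**Figure D4:**
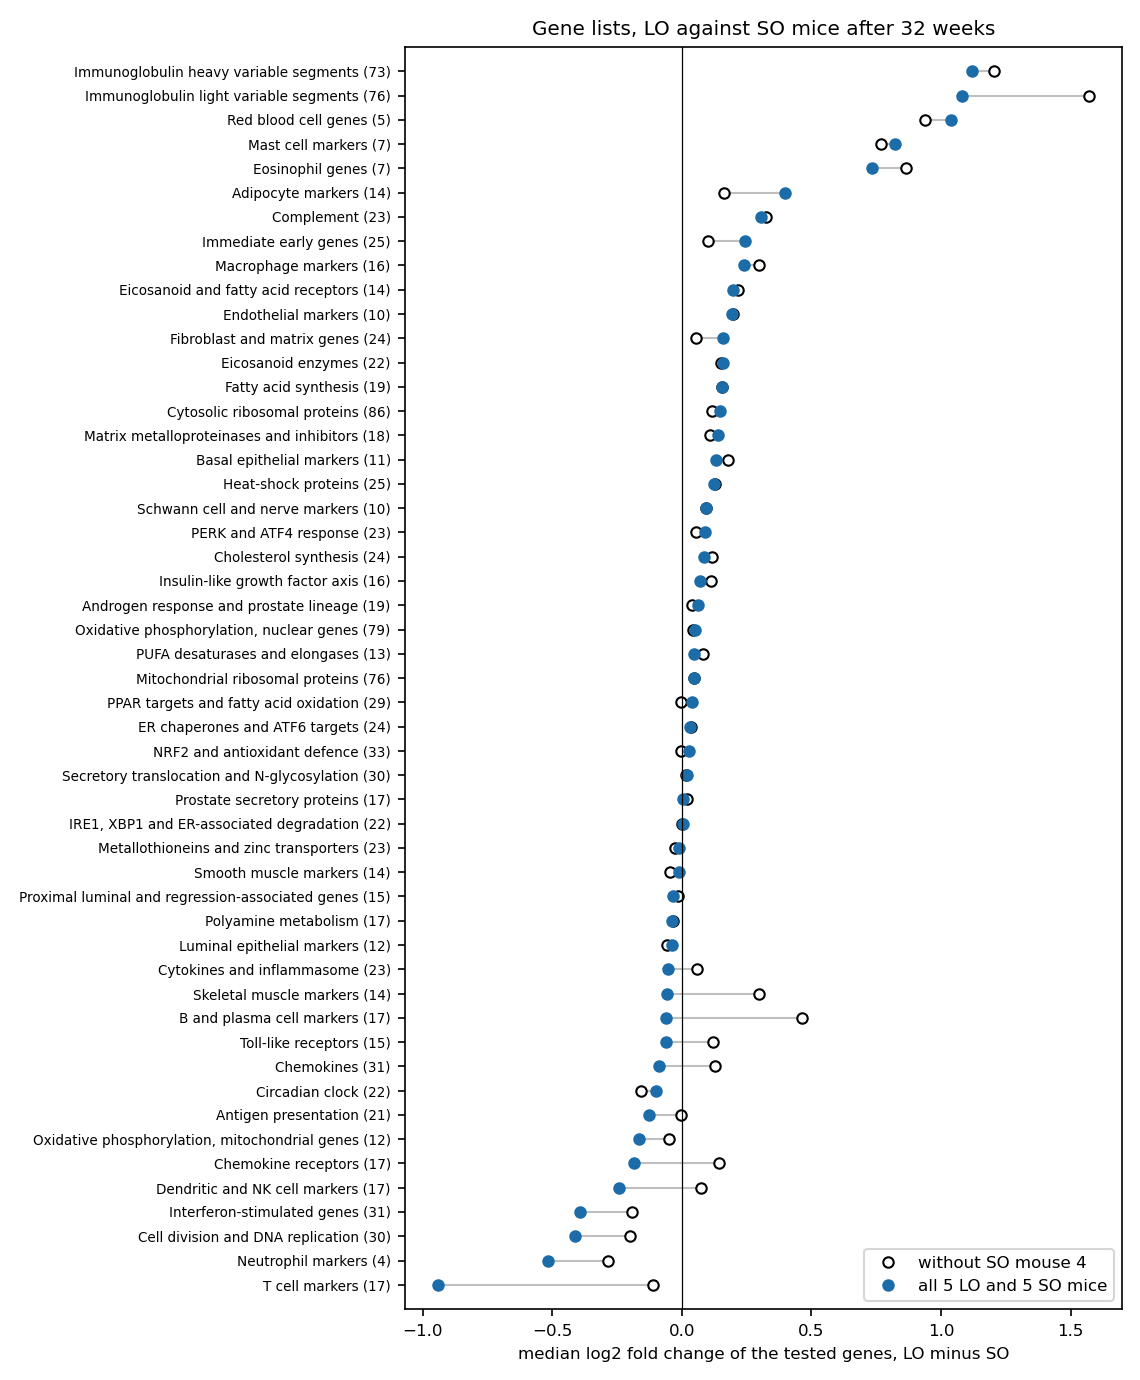
Median log2 fold change LO minus SO of the tested genes of each list after 32 weeks, with all 5 LO and 5 SO mice (filled) and without SO mouse 4 (open), and the number of tested genes in parentheses. T cell markers lie at -0.94 with all mice and at -0.11 without SO mouse 4, while both immunoglobulin segment lists lie above 1 in both.

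The same contrast after 12 weeks asks whether the diets differed alike at the earlier age. In 1 edgeR fit of all 30 mice, 0 of 16605 genes (0%) had a different LO minus SO change at 32 and 12 weeks at an adjusted p of 0.05, with 553 at an unadjusted p under 0.05 and a smallest adjusted p of 0.9998, which holds for every gene named below (DESeq2, 0 genes and 652). After 12 weeks itself 0 genes passed, with 662 at an unadjusted p under 0.05 and a smallest adjusted p of 0.69. The genes named above were chosen by their p at 32 weeks, so only their values at 12 weeks are free of that choice, and the differences between the times are not. CPM of 12 weeks come from a scaling of all 30 libraries.

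Hoxa13 stood at 17.1, 15.1, 12.98, 15.8 and 17.6 CPM in LO mice and 15.4, 14.7, 19.3, 18.9 and 16.1 CPM in SO mice after 12 weeks. The diets overlapped there (log2 fold change -0.10 ± 0.12), and the difference between the times was 0.69 ± 0.17. Hottip gave -0.13 ± 0.29 after 12 weeks and a difference of 1.49 ± 0.42. Lyz1 stood at 7.96, 4.26, 9.46, 9.47 and 17.5 CPM and 2.35, 5.72, 7.47, 12.2 and 12.2 CPM after 12 weeks, an overlap of the diets (0.28 ± 0.38, difference 1.66 ± 0.55). Gm12873 gave -0.028 ± 0.48 and Mug1 -0.37 ± 0.65 after 12 weeks, with differences of -1.80 ± 0.69 and -1.68 ± 0.92. Adarb2 gave 0.68 ± 0.31 after 12 weeks, close to its value at 32 weeks, and Rgs7bp -0.54 ± 0.24.

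Other genes joined the Hoxa genes among those with the smallest p for a difference between the times. On the side of a larger LO minus SO value at 32 weeks, beside Hoxa13, Hottip and Hoxa11os, were Ighv5-4 at 6.53 ± 1.94 and the tetraspanin Tspan7 at 0.49 ± 0.15. On the other side were the X-linked Xlr4b at -3.98 ± 0.93, Amd2 at -3.52 ± 0.98, Gm26797 at -0.87 ± 0.26, Ero1l, an oxidase of the endoplasmic reticulum, at -0.71 ± 0.21, and Morc3 at -0.30 ± 0.092. Amd2, a copy of the polyamine enzyme Amd1, can lack reads that match both copies. It was set by SO mouse 4 after 32 weeks at 26.8 CPM and LO mouse 4 after 12 weeks at 42.6 CPM, with the other mice of both diets under 5 CPM. Interferon-stimulated genes were higher in LO in 30 of 31 cases after 12 weeks with a median of 1.002, and T cell markers in 16 of 17 with a median of 0.67. Both lists had the opposite sign after 32 weeks, and 0 of their genes passed the test of that difference. At an unadjusted p under 0.05, 19 of 31 interferon-stimulated genes and 9 of 17 T cell markers had the lower LO minus SO value at 32 weeks and 0 the higher, against 2.23% and 1.1% of all genes. Single mice decided these counts: the 19 became 0 without LO mouse 4 of 12 weeks and 10 without SO mouse 4 of 32 weeks, and the 9 became 3 and 2.

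**Figure D5:**
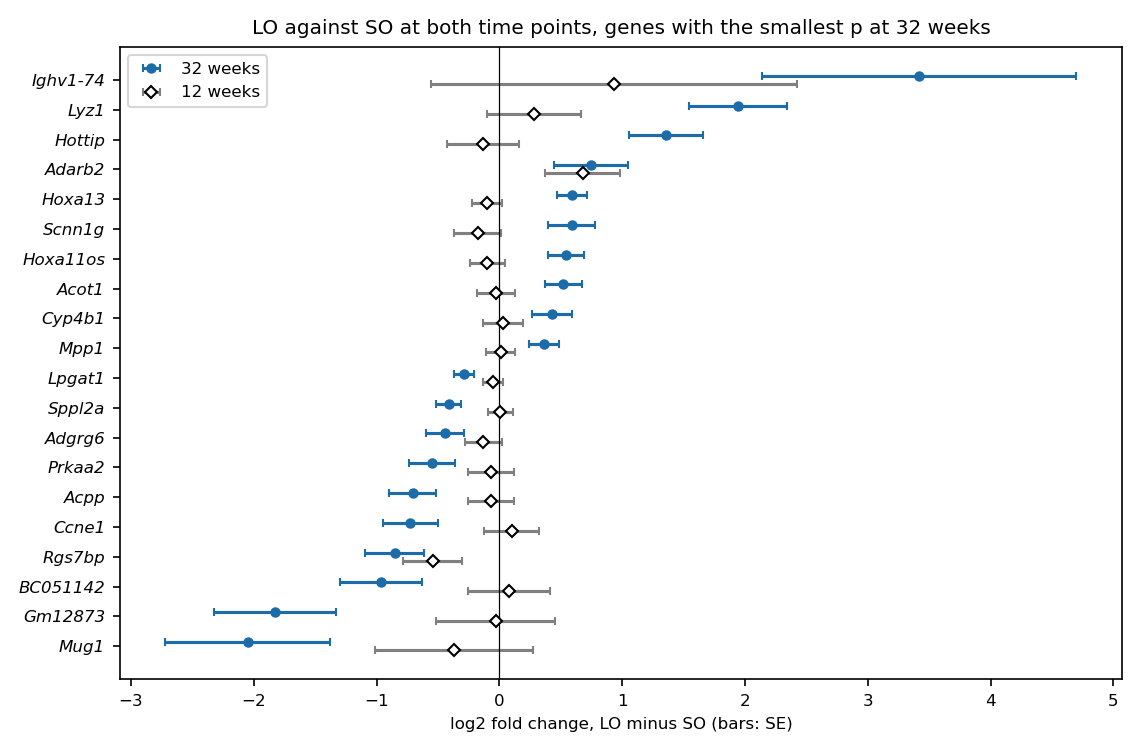
Log2 fold change LO minus SO after 32 weeks (filled circles) and after 12 weeks (open diamonds) of 20 genes, with bars for the SE. These are the 10 genes per direction with the smallest p at 32 weeks and a mean of at least 1 CPM. Their p came from the fit of the 15 mice of 32 weeks, and the values plotted from 1 fit of all 30 mice. Lyz1 lies at 1.95 after 32 and 0.28 after 12 weeks, Hottip at 1.36 and -0.13, and most 12-week values lie nearer to 0.

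The PF mice of the same age share their LO and SO partners with the contrast above, so their values are given side by side only. By edgeR, PF against SO left 1748 of 16218 genes at an unadjusted p under 0.05 and PF against LO 1394, compared to 565 for LO against SO. With that test 0 genes passed the adjusted threshold in either PF comparison. The study, which used DESeq2, reported differentially expressed genes for PF against either diet at this age and no such gene for LO against SO. DESeq2 as run here called 6 genes for LO against SO, unlike the study, and no DESeq2 result for PF is given here. Lyz1 stood at 7.26, 8.36, 6.62, 5.52 and 6.26 CPM in PF mice 1 to 5, with PF mouse 2 alone above the lowest LO mouse and all 5 above 4 of the 5 SO mice, and Hoxa13 at 15.2, 14.8, 18.4, 12.2 and 19.6 CPM. Hottip stood at 0.685, 1.01, 1.25, 0.716 and 1.47 CPM in PF and Mug1 at 652, 266, 101, 351 and 184 CPM, both spanning the gap between LO and SO.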

How the data were processed

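VP RNA of 10 mice, 5 LO and 5 SO of 32 weeks, was sequenced from TruSeq stranded mRNA libraries. The authors deposited whole-number read counts per gene and library, made with TopHat2 and HTSeq on GRCm38.p6 per the submitters' processing notes, with DESeq2 also named there. Versions and the strand setting of the counting are not given in the sources used here. Lines for reads that could not be assigned to a gene held between 27.3% and 32.2% of the reads and were set aside. Among them, the line for alignments to more than 1 place held between 16.1% and 20.3%. Reads that match near copies of a gene alike can therefore be missing from the counts. Symbols were matched for 37607 of 39179 gene IDs from GENCODE on GRCm38.

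All 15 mice of 32 weeks entered 1 edgeR fit (4.0.16, R 4.3.3: filterByExpr, TMM, quasi-likelihood test, two-sided, diet only), with Benjamini-Hochberg adjustment over 16218 genes and calls at an adjusted p under 0.05. DESeq2 (1.42.0) was an alternative. The test between the times used all 30 mice. CPM values are TMM scaled, log2 CPM used a prior count of 2, and the scripts were tested on simulated data. Intervals and p-values cover 5 mice per diet, and the chi-square per degree of freedom between libraries of a diet was at least 24.6, so none was a duplicate.

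The genes and lists were chosen with earlier results of these data known, and 3 lists (eosinophil genes and immunoglobulin variable segments), the Hox clusters, and the runs without SO mouse 4, without those segments and without each mouse for 2 lists between the times were added after the values were seen. Named are the 10 genes per direction with the smallest p and a mean of at least 1 CPM, in each list the member with the smallest p, the largest difference and the 2 highest levels, chosen genes of lipid, prostate and immune biology, and 5 genes of each sign for the test between the times. Not every gene so named is printed. Gm12888 and 9530053A07Rik were named for the DESeq2 calls. Alternatives covered normalization, filters, the mice fitted, a robust fit, a replicate block and each mouse left out.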

Additional observations from a re-analysis of the deposited data

Results flagged for a closer look

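Examined were 322 groups of 5 mice, each a named gene, a gene list or a measure of the whole library in 1 diet. Of these, 42 had 1 mouse whose gap to the nearest other mouse exceeded 0.71 of the range of the group, the Dixon critical value. For normally distributed values chance alone gives about 1 group in 20. The shape of these values was not tested, and the genes are not independent of each other. SO mouse 4 gave 11 of the 42, more than any other mouse. It was the highest SO mouse for the T cell genes Cd3g at 9.28 CPM, Cd3e at 4.54 CPM and Trac at 3.65 CPM, and for the T cell list at a sum of 88.6 CPM. It was also highest for the B cell genes Cd22 at 21.7 CPM, Cr2 at 5.101 CPM and Ccr6 at 2.38 CPM, for the division genes Mki67 at 57.3 CPM and Rrm2 at 24.6 CPM, and for Amd2 at 26.8 CPM. The PERK and ATF4 list was lowest there at 1300 CPM.

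LO mouse 1 was the highest LO mouse for Krt5 at 107 CPM, Krt8 at 517 CPM and Mmp12 at 16.6 CPM. Its sums were highest for neutrophil markers at 67.9 CPM, skeletal muscle at 943 CPM, metallothioneins and zinc transporters at 1842 CPM and red blood cell genes at 154 CPM. SO mouse 1 was the highest SO mouse for Scnn1g at 2.84 CPM, Hoxb13 at 541 CPM and Srebf1 at 158 CPM, and for the sums of basal markers at 811 CPM, smooth muscle at 4739 CPM and red blood cell genes at 82.9 CPM. LO mouse 3 was the highest for Tgm4 at 302 CPM and 9530053A07Rik at 578 CPM.

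SO mouse 3 was highest for Acot1 at 28.1 CPM, Mmp9 at 4.81 CPM and the fibroblast sum at 2747 CPM, and lowest for the cholesterol sum at 813 CPM and the chaperone sum at 10180 CPM. SO mouse 5 was highest for Mmp12 at 86.6 CPM and Lep at 24.4 CPM, and SO mouse 2 for Rgs7bp at 29.9 CPM. LO mouse 5 was highest for Xbp1 at 426 CPM, S100a9 at 2.06 CPM, Ear2 at 7.18 CPM, Fdps at 58.8 CPM and the eosinophil sum at 556 CPM, most of which is Cd24a, a gene that luminal cells also use. LO mouse 4 was lowest for Xlr4b at 0.349 CPM and Trp63 at 16.6 CPM, and LO mouse 2 was highest for Nr1d2 at 121 CPM.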

How the results depend on the processing

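No adjusted call was made under size factors of DESeq2, without a filter, with at least 10 counts in every mouse, with all 6 groups, with a robust fit, or with any of the 10 mice left out. DESeq2 called 6 genes, edgeR on the LO and SO mice alone called 1 (Gm12873, log2 fold change -1.82, adjusted p = 0.0326), and DESeq2 with the replicate number as a block called 19, of which 5 were among the 6. The edgeR fit with a replicate block called 0, with 737 genes at an unadjusted p under 0.05. Mice of the same number were not treated as pairs, since only 3 of 5 correlations of their deviations were over 0.1 (0.36, 0.209, 0.36, -0.419 and -0.116), although 3 of 5 LO and 2 of 5 SO mice correlated best with their own number. The 565 genes at an unadjusted p under 0.05 ranged from 359 without LO mouse 3 to 760 without LO mouse 4, and the smallest adjusted p with a mouse left out was 0.134 (edgeR, without SO mouse 3). The test between the times made 0 calls under all its alternatives, with 373 to 842 genes at an unadjusted p under 0.05. The difference on the first component ranged from 9.29 to 25.5 with a mouse left out, and the distance between minus within diets from -3.23 to 1.12, positive without LO mouse 4 or SO mouse 3. Of 51 list medians 20 changed sign with at least 1 mouse left out, the one farthest from 0 being dendritic and NK cell markers at -0.24, and 2 moved past their spread, T cell markers to -0.11 without SO mouse 4 and the androgen response list to -0.017 without LO mouse 1. Of 107 named genes, Lep turned to 0.10 under the replicate block and Msmb to -0.000266 without a filter and -0.0031 with all 6 groups. With each mouse left out in turn, the log2 fold changes that crossed 0 ranged as follows: Amd2 -1.65 to 0.20, Lyz2 -0.10 to 0.53, Hoxb13 -0.30 to 0.20, Krt8 -0.17 to 0.20, Mmp12 -4.06 to 0.053, Lep -1.76 to 0.93, Acot2 -0.036 to 0.12, Sbp -0.15 to 0.081, Pbsn -0.24 to 0.42, Msmb -0.21 to 0.21, Fasn -0.032 to 0.32, Il1b -0.041 to 0.58, Acta2 -0.036 to 0.14, Pdk4 -0.075 to 0.29, Adipoq -0.044 to 1.23, Adgre1 -0.059 to 0.46, Cd74 -0.10 to 0.28, H2-Aa -0.23 to 0.24 and Tlr4 -0.14 to 0.000468. The cause of these changes was not tested. Depth limits rare transcripts: Il6 had at most 5 counts and Ucp1 at most 6 in any of the 10 libraries.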
